A study of Mus musculus with 20 samples.

Results

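The genes described here are 10 mouse genes that set how a cell enters the division cycle. They are the Myc family (Myc, Mycn and Mycl), the D-type cyclins (Ccnd1, Ccnd2 and Ccnd3) and their kinases (Cdk4 and Cdk6). The remaining genes, Cdkn1a and Cdkn1b, encode inhibitors that bind cyclin-kinase complexes. The genes were chosen by name, and all 10 were found among the 24795 genes of the deposited expression table. RNA had been sequenced from 20 mouse intestinal libraries. They came from Apc Min mice given DM-aKG (6 libraries), which were set against Apc Min mice given a control treatment (7 libraries) and against untreated wild-type (WT) mice (7 libraries). Apc Min mice carry a truncating mutation in Apc, a brake on Wnt signalling, and develop intestinal tumours. DM-aKG is dimethyl alpha-ketoglutarate, a membrane-permeable ester of a metabolite of the citric acid cycle. The control treatment is not named in the labels, which also give no strain, age, sex or dose.

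All 3 groups share the same further labels: intestinal organoids, primary cells, an in vitro description, organoid medium and a low-glutamine medium. The sample titles name tissue instead. Both genotype and treatment separate the control Apc Min group and the WT group, since the WT mice were untreated. The labels do not say that each library came from a separate animal, so the p-values below measure the spread between these libraries, which may be technical.

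Myc proteins are transcription factors that pair with Max and bind the E-box CACGTG, where they raise the expression of ribosome, nucleotide and cell-cycle genes. D-type cyclins activate Cdk4 and Cdk6, which phosphorylate the retinoblastoma protein and so release E2F factors that switch on DNA replication genes. Cdkn1a (p21) and Cdkn1b (p27) bind cyclin-kinase complexes and restrain the kinase that acts next, Cdk2. In the intestine Myc is a target gene of beta-catenin and TCF, and in mice its deletion prevents the crypt changes that follow loss of Apc.

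Levels are given as RPKM, reads per kilobase of gene scaled to the mapped reads of the library, a unit inferred from the deposited values. The libraries held an estimated 21.2 to 29.25 M reads. Markers of the labelled tissue were present in every library, with Epcam at 654 ± 77.3 RPKM in DM-aKG libraries, 800 ± 90.2 RPKM in control libraries and 937 ± 109 RPKM in WT libraries (SD, n = 6, 7 and 7). No marker in the lists of 7 epithelial, 10 smooth muscle, 7 fibroblast, 7 leukocyte and 5 endothelial genes was at 0 in any library. The smooth muscle list summed to 767 to 1386 RPKM in DM-aKG libraries, 353 to 1237 RPKM in control libraries and 895 to 1548 RPKM in WT libraries. The fibroblast list summed to 112 to 213 RPKM in DM-aKG libraries, 237 to 348 RPKM in control libraries and 82.5 to 155 RPKM in WT libraries. The leukocyte list summed to 74.7 to 227 RPKM in DM-aKG libraries, 53.3 to 136 RPKM in control libraries and 268 to 750 RPKM in WT libraries. Libraries of replicates 1 to 4 stood apart from those of replicates 5 to 7 in the ribosomal RNA gene Rn45s, at 3836 to 6558 against 1078 to 3621 RPKM, and the labels do not say what the numbers mark.

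**Figure D1:**
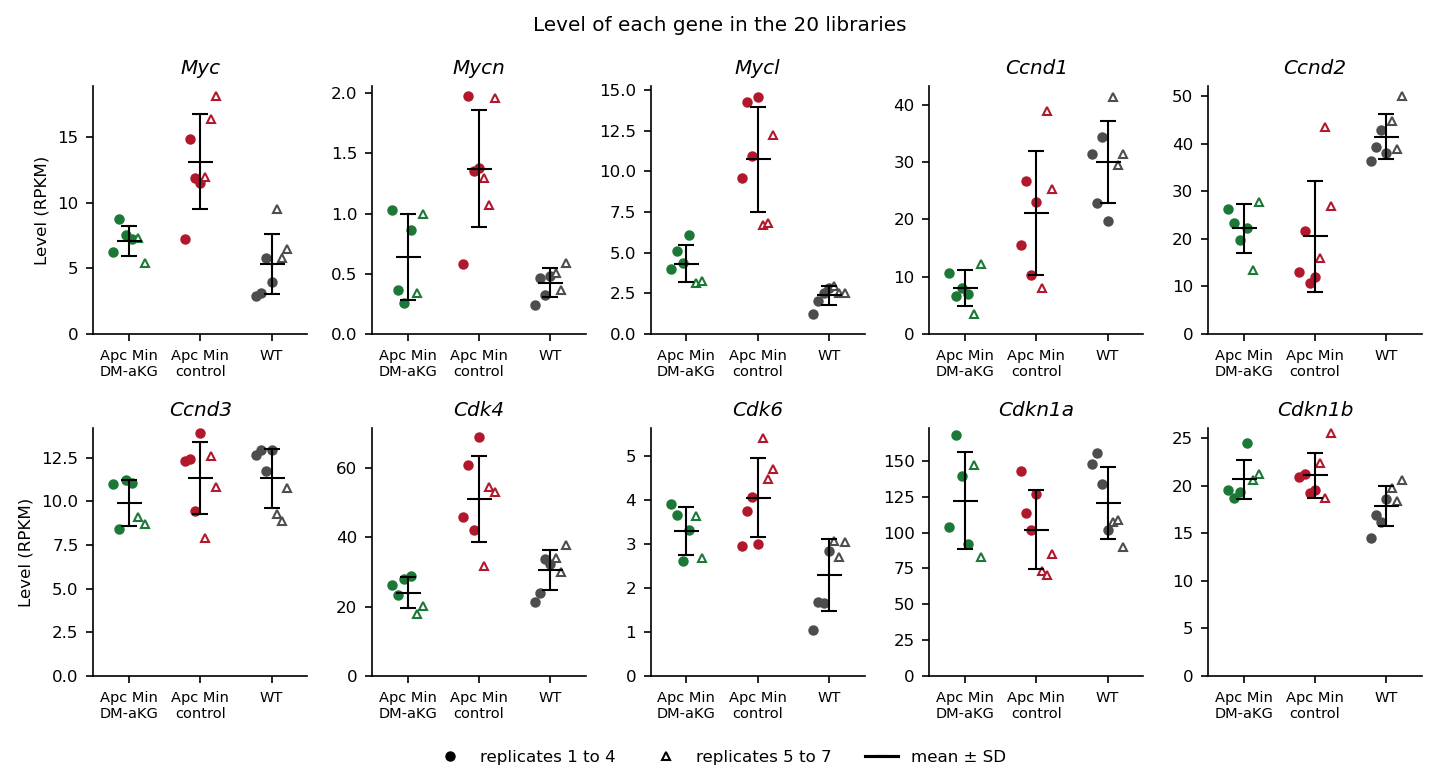
Level of each of the 10 genes in RPKM (vertical axes, linear, 1 scale per panel) in each DM-aKG, control and WT library. Filled circles are replicates 1 to 4, open triangles are replicates 5 to 7, and bars give the mean ± SD. In the Cdk4 and Mycl panels every DM-aKG library lies below every control library.

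In DM-aKG against control libraries, Myc, Mycl, Ccnd1 and Cdk4 were lower, and none of the 10 genes was higher. These were 4 of the 9 genes that reached 1 RPKM in 6 or more libraries without depending on the control group, and Mycn, described apart, was the fifth gene to pass the test. Of all 12433 genes tested, 33.5% passed, 5.91% as higher and 27.6% as lower. The test was limma on log2(RPKM + 1) over all 20 libraries, with a Benjamini-Hochberg adjusted p under 0.05 over all genes. A bulk library cannot tell fewer cells of a type and less RNA per cell apart. In control against WT libraries, Myc, Mycl, Cdk4, Cdk6 and Cdkn1b were higher and Ccnd2 was lower among the same 9 genes, where 58.8% of all genes passed, 43.2% as higher and 15.7% as lower. In DM-aKG against WT libraries, Mycl and Cdk6 were higher and Ccnd1 and Ccnd2 were lower, against 39.2% of all genes, 21.9% as higher and 17.3% as lower. The first 2 of these comparisons share the control libraries, and their values are given side by side for that reason.

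**Figure D2:**
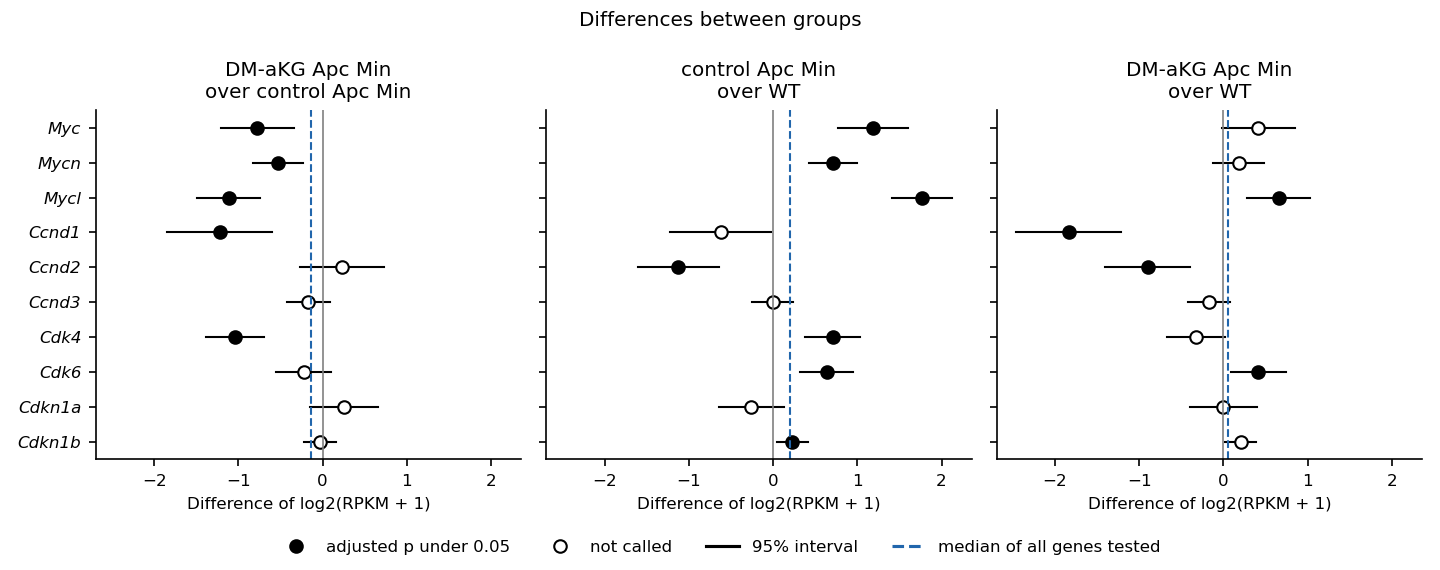
Difference of each gene on the log2(RPKM + 1) scale (horizontal axis) with its 95% interval, for DM-aKG over control, control over WT and DM-aKG over WT. Filled points passed the adjusted p of 0.05, open points did not, and the dashed line is the median of all genes tested. Mycl and Cdk4 lie near -1 for DM-aKG over control, while Cdkn1b lies near 0 and Cdkn1a at 0.26, both as open points.

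The median difference of all genes tested was not at 0. It was -0.14 for DM-aKG over control, 0.20 for control over WT and 0.05 for DM-aKG over WT, on the log2 scale. Median-of-ratios scaling of the libraries moved these medians to 0.02, -0.01 and 0.01. Relative to the median of all genes, Myc differed by -0.63, Mycl by -0.97, Ccnd1 by -1.08 and Cdk4 by -0.89 for DM-aKG over control. The calls over all genes were 735 higher and 3432 lower for DM-aKG over control on the deposited scale, and 1533 higher and 1695 lower after that scaling. For control over WT they were 5368 higher and 1948 lower, and 3239 higher and 3439 lower after the scaling.

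Myc (chr15:61985391-61990374, plus strand, GRCm38/mm10) was highest in the control Apc Min libraries. Its level was 5.40, 7.27 and 8.72 RPKM (lowest, median and highest) in DM-aKG libraries, 7.27, 11.9 and 18.1 RPKM in control libraries and 2.88, 5.77 and 9.49 RPKM in WT libraries. All 6 DM-aKG libraries lay below the control median and 3 lay below the lowest control library, while 6 of 7 control libraries lay above the highest WT library. The means were 7.08 ± 1.14 RPKM in DM-aKG libraries, 13.1 ± 3.61 RPKM in control libraries and 5.36 ± 2.30 RPKM in WT libraries (SD, n = 6, 7 and 7). Myc fell by 0.77 on the log2 scale in DM-aKG against control libraries (SE 0.21, adjusted p = 0.00743). It rose by 1.19 in control against WT libraries (SE 0.20, adjusted p = 5.09e-05), and the DM-aKG libraries did not pass the test against WT (0.41, 95% interval -0.02 to 0.85, adjusted p = 0.12).

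The fall of Myc was smaller in replicates 1 to 4 (-0.52, adjusted p = 0.109 in those libraries alone) than in replicates 5 to 7 (-1.16), and the difference between the sets did not pass its own test (adjusted p = 0.459). With the mean smooth muscle level as a covariate the difference was -0.64 (adjusted p = 0.116), and over all alternatives the adjusted p ran between 0.00095 and 0.116. Against WT, the DM-aKG difference of Myc was 0.80 in replicates 1 to 4, where it passed as higher (adjusted p = 0.0148), and -0.15 in replicates 5 to 7 (adjusted p = 0.695), and the difference between the sets did not pass (adjusted p = 0.71). It also passed as higher without WT replicate 5 (0.55, adjusted p = 0.0324, against 0.0148 to 0.695 over all alternatives).

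Mycl (chr4:122995652-123002485, plus strand), which encodes L-Myc, gave 3 groups that did not overlap. Its level was 3.16, 4.18 and 6.09 RPKM in DM-aKG libraries, 6.69, 10.97 and 14.6 RPKM in control libraries and 1.26, 2.52 and 2.92 RPKM in WT libraries. Every DM-aKG library lay below every control library and above every WT library. Mycl and Cdk4 were the genes of the 10 whose DM-aKG and control libraries did not overlap, both lower in DM-aKG, where 8.92% of all genes did not overlap, 0.732% as higher and 8.19% as lower. Between control and WT libraries Mycl alone of the 10 did not overlap, where 26.1% of all genes did not overlap, 20.4% as higher and 5.73% as lower. The mean of Mycl was 4.33 ± 1.12 RPKM in DM-aKG libraries, 10.7 ± 3.23 RPKM in control libraries and 2.37 ± 0.573 RPKM in WT libraries (SD, n = 6, 7 and 7). It fell by 1.12 on the log2 scale in DM-aKG against control libraries (SE 0.18, adjusted p = 8.02e-05) and rose by 1.77 in control against WT libraries (SE 0.17, adjusted p = 5.48e-08). DM-aKG libraries were higher than WT libraries by 0.65 (SE 0.18, adjusted p = 0.00751), with 0.91 in replicates 1 to 4 and 0.21 in replicates 5 to 7, where it did not pass (adjusted p = 0.572; over all alternatives 0.000468 to 0.572). The DM-aKG and control difference of Mycl passed under every alternative tried, with an adjusted p of at most 0.0127.

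Mycn (chr12:12936093-12941914, minus strand), which encodes N-Myc, was the lowest of the 10 genes in 20 of 20 libraries. It reached 1 RPKM in 1 of 6 DM-aKG libraries, 6 of 7 control libraries and 0 of 7 WT libraries, so it entered the test mainly through the control group and its calls are no separate support. Its level was 0.257, 0.613 and 1.03 RPKM in DM-aKG libraries, 0.578, 1.35 and 1.97 RPKM in control libraries and 0.240, 0.464 and 0.593 RPKM in WT libraries. All 6 DM-aKG libraries lay below the control median, and 6 of 7 control libraries lay above the highest WT library. The fitted differences were -0.53 for DM-aKG over control (SE 0.14, adjusted p = 0.00698), 0.71 for control over WT (SE 0.14, adjusted p = 0.000192) and 0.18 for DM-aKG over WT (SE 0.14, adjusted p = 0.327). The first of these did not pass with quantile normalization, in either set of replicates alone or with the smooth muscle covariate (adjusted p between 0.0557 and 0.148, and between 0.000954 and 0.148 over all alternatives). With that covariate the control and WT difference did not pass either (adjusted p = 0.0522, against 1.63e-05 to 0.0522 over all alternatives).

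The summed level of the 3 Myc genes was 12.1 ± 1.84 RPKM in DM-aKG libraries, 25.2 ± 5.48 RPKM in control libraries and 8.15 ± 2.79 RPKM in WT libraries (SD, n = 6, 7 and 7). Myc exceeded Mycl in 18 of 20 libraries, and the 2 exceptions were control libraries. Mycl made up 35.5 ± 4.36% of the sum in DM-aKG libraries, 42.7 ± 9.96% in control libraries and 30.1 ± 5.58% in WT libraries. The fibroblast list moved in the same direction as the sum, with 5 of its 7 genes lower in DM-aKG than in control libraries and 6 of 7 higher in control than in WT libraries. Its part in the levels of the Myc genes was not tested.

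Of the D-type cyclins, Ccnd1 alone was lower in DM-aKG than in control libraries. Ccnd1 (chr7:144929931-144939925, minus strand), the cyclin gene most often tied to Wnt signalling, had 3.44, 7.49 and 12.2 RPKM in DM-aKG libraries, 7.995, 23.0 and 39.0 RPKM in control libraries and 19.8, 31.4 and 41.4 RPKM in WT libraries. All 6 DM-aKG libraries lay below every WT library and below the control median, and 3 lay below the lowest control library. The control libraries spread most, at 15.5, 26.7, 10.3, 23.0, 7.995, 39.0 and 25.4 RPKM for replicates 1 to 7. The means were 7.99 ± 3.12 RPKM in DM-aKG libraries, 21.1 ± 10.8 RPKM in control libraries and 30.1 ± 7.17 RPKM in WT libraries (SD, n = 6, 7 and 7). In DM-aKG libraries Ccnd1 fell by 1.22 on the log2 scale against control libraries (SE 0.30, adjusted p = 0.00387) and fell by 1.84 against WT libraries (SE 0.30, adjusted p = 0.000137). The DM-aKG mean was 0.378 times the control mean and 0.266 times the WT mean.

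Between control and WT libraries Ccnd1 did not pass the test (-0.62, 95% interval -1.22 to -0.02, adjusted p = 0.0703). It passed as lower with quantile normalization (adjusted p = 0.0413), with median-of-ratios scaling (-0.86, adjusted p = 0.0159), without control replicate 6 (-0.79, adjusted p = 0.0189) and without WT replicate 4 (-0.71, adjusted p = 0.048), against 0.0159 to 0.884 over all alternatives. In replicates 5 to 7 alone, with 2 DM-aKG libraries, the differences of Ccnd1 were -1.47 against control (adjusted p = 0.133, against 0.000155 to 0.133 over all alternatives) and -2.18 against WT (adjusted p = 0.0882, against 1.40e-06 to 0.0882). In the annotation 1100 of the 4709 exon bases of Ccnd1 (23.4%) are shared with Oraov1 on the other strand, and the strand setting of the authors' counting is not given in the sources used here. Oraov1 had 2.88 ± 0.42 RPKM in DM-aKG libraries, 3.25 ± 0.361 RPKM in control libraries and 3.83 ± 0.241 RPKM in WT libraries (SD, n = 6, 7 and 7), the same order of groups as Ccnd1. It differed by -0.13 for DM-aKG over control (adjusted p = 0.2), by -0.19 for control over WT (adjusted p = 0.0407) and by -0.32 for DM-aKG over WT (adjusted p = 0.00382).

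Ccnd2 (chr6:127125162-127152193, minus strand), which encodes cyclin D2, was lower in both Apc Min groups than in WT. It had 13.5, 22.8 and 27.8 RPKM in DM-aKG libraries, 10.7, 16.0 and 43.6 RPKM in control libraries and 36.3, 39.3 and 50.1 RPKM in WT libraries. Every DM-aKG library and 6 of 7 control libraries lay below the lowest WT library, and the exception was control replicate 6 at 43.6 RPKM. The means were 22.2 ± 5.12 RPKM in DM-aKG libraries, 20.5 ± 11.7 RPKM in control libraries and 41.5 ± 4.79 RPKM in WT libraries (SD, n = 6, 7 and 7). Against WT libraries, Ccnd2 fell by 0.90 on the log2 scale in DM-aKG libraries (SE 0.24, adjusted p = 0.00657) and fell by 1.13 in control libraries (SE 0.23, adjusted p = 0.000347). Ccnd1, Ccnd2 and Mycl were the genes of the 10 whose DM-aKG and WT libraries did not overlap, 1 higher and 2 lower, where 17.1% of all genes did not overlap, 9.36% as higher and 7.79% as lower.

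Ccnd2 did not pass between DM-aKG and control libraries (0.23, 95% interval -0.27 to 0.73, adjusted p = 0.492), and this difference had opposite signs in the sets of replicates. It was 0.69 in replicates 1 to 4, where it passed as higher (adjusted p = 0.0184), and -0.44 in replicates 5 to 7 (adjusted p = 0.467, against 0.0184 to 0.768 over all alternatives). The test of the difference between the sets gave an unadjusted p = 0.016 and an adjusted p = 0.388. In control against WT libraries the difference of Ccnd2 was -0.71 in replicates 5 to 7 (adjusted p = 0.158) and -0.65 with the smooth muscle covariate (adjusted p = 0.142), so neither passed, against 7.04e-06 to 0.158 over all alternatives. In replicates 5 to 7 the DM-aKG and WT difference was -1.15 (adjusted p = 0.131, against 0.000259 to 0.131 over all alternatives).

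Ccnd3 (chr17:47505051-47599691, plus strand), which encodes cyclin D3, kept the narrowest range of the D-type cyclins. It had 8.39, 10.02 and 11.2 RPKM in DM-aKG libraries, 7.90, 12.3 and 13.9 RPKM in control libraries and 8.86, 11.8 and 12.9 RPKM in WT libraries. The 3 groups overlapped, although all 6 DM-aKG libraries lay below both other medians. None of its differences passed: they were -0.17 for DM-aKG over control (95% interval -0.42 to 0.08, adjusted p = 0.296), -0.00 for control over WT (-0.24 to 0.24, adjusted p = 0.989) and -0.17 for DM-aKG over WT (-0.42 to 0.08, adjusted p = 0.269). The first was at 0.01 with median-of-ratios scaling and at -0.47 with the smooth muscle covariate, where it passed as lower (adjusted p = 0.0174, against 0.0174 to 0.98 over all alternatives).

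**Figure D3:**
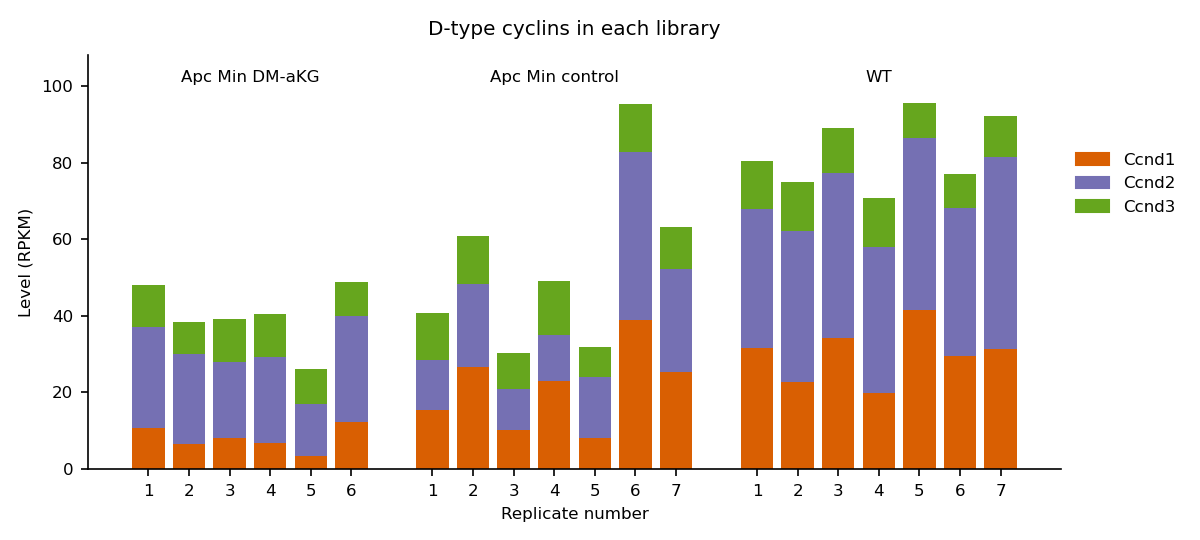
Level of Ccnd1, Ccnd2 and Ccnd3 in RPKM, stacked for each of the 20 libraries (vertical axis, linear and starting at 0), in DM-aKG, control and WT order. The stacks reach 26.0 to 48.7 RPKM in DM-aKG libraries, 30.4 to 95.3 RPKM in control libraries and 70.8 to 95.6 RPKM in WT libraries, and the Ccnd1 layer is thinnest in the DM-aKG libraries.

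The 3 cyclin genes together reached 40.1 ± 8.23 RPKM in DM-aKG libraries, 53.025 ± 22.6 RPKM in control libraries and 82.9 ± 9.40 RPKM in WT libraries (SD, n = 6, 7 and 7). Ccnd1 made up 13.2 to 25.07% of this sum in DM-aKG libraries, 25.06 to 47.0% in control libraries and 27.9 to 43.3% in WT libraries, with means of 19.3%, 38.5% and 35.9%. The shares of DM-aKG and control libraries met at 1 library of each group, and those of DM-aKG and WT libraries did not overlap. Ccnd2 made up 55.1 ± 3.62% in DM-aKG libraries, 37.9 ± 8.79% in control libraries and 50.2 ± 3.53% in WT libraries. Ccnd2 exceeded Ccnd1 in 6 of 6 DM-aKG libraries, 4 of 7 control libraries and 7 of 7 WT libraries. Ccnd3 exceeded Ccnd1 in 5 of 6 DM-aKG libraries, in 0 control libraries and in 0 WT libraries.

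Cdk4 was higher in control libraries than in DM-aKG libraries and than in WT libraries. Its promoter is shown because, of the windows read for these genes, it held the most copies of the Myc E-box, and that of Cdk6 is shown beside it as the other kinase. RefSeq windows of 250 bases before to 50 after a gene start (GRCm38.p6) were matched for 7 of the 10 genes, in 9 windows, and not for Myc, Ccnd1 and Ccnd2. Capitals mark CACGTG, which reads the same on both strands, and ATCAAAG on either strand, the core of a TCF/LEF site. The Cdk4 window is chr10:127063285-127063584 and the Cdk6 window chr5:3343643-3343942, both on the plus strand.
Cdk4: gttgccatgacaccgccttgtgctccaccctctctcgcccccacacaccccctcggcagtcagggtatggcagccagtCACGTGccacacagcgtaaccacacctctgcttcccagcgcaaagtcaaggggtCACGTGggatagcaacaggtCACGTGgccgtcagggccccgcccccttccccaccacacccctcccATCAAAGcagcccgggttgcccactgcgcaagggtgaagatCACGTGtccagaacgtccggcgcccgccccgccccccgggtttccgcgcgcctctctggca
Cdk6: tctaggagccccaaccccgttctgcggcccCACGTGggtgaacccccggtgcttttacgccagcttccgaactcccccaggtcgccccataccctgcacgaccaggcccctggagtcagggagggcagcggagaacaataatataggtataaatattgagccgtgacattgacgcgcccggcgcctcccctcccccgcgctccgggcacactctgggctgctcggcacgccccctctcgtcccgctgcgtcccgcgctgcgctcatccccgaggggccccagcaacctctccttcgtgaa
The Cdk4 window held 4 copies of CACGTG and 1 of ATCAAAG, and the Cdk6 window held 1 copy of CACGTG. No other window of the 9 held either motif. Of all 32851 promoter windows in the table, 7.15% held CACGTG and 3.73% held ATCAAAG. A match of letters is a description of the window and no evidence of binding.

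Cdk4 (chr10:127063534-127067920, plus strand) had 17.8, 24.8 and 28.8 RPKM in DM-aKG libraries, 31.7, 53.1 and 69.0 RPKM in control libraries and 21.5, 32.4 and 37.9 RPKM in WT libraries. Every DM-aKG library lay below every control library, 6 of 7 control libraries lay above the highest WT library, and DM-aKG and WT libraries overlapped. The means were 24.0 ± 4.38 RPKM in DM-aKG libraries, 51.0 ± 12.3 RPKM in control libraries and 30.5 ± 5.85 RPKM in WT libraries (SD, n = 6, 7 and 7). Cdk4 fell by 1.04 on the log2 scale in DM-aKG against control libraries (SE 0.16, adjusted p = 7.26e-05), and rose by 0.71 in control against WT libraries (SE 0.16, adjusted p = 0.000745). DM-aKG over WT was -0.33 (95% interval -0.67 to 0.01, adjusted p = 0.116), which passed as lower with median-of-ratios scaling (adjusted p = 0.048, against 0.048 to 0.854 over all alternatives).

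The DM-aKG and control difference of Cdk4 passed under every alternative tried, with an adjusted p of at most 0.0108, and was -0.98 in replicates 1 to 4 and -1.21 in replicates 5 to 7. The control and WT difference did not pass in replicates 5 to 7 alone (0.41, adjusted p = 0.159, against 3.33e-05 to 0.159 over all alternatives). Of the 3249 exon bases of Cdk4, 641 (19.7%) are shared with Tspan31 on the other strand. Tspan31, a tetraspanin gene, had 22.8 ± 5.26 RPKM in DM-aKG libraries, 28.0 ± 7.58 RPKM in control libraries and 37.3 ± 4.92 RPKM in WT libraries (SD, n = 6, 7 and 7), so its highest group was WT and that of Cdk4 was control. Tspan31 differed by -0.27 for DM-aKG over control (adjusted p = 0.239), by -0.44 for control over WT (adjusted p = 0.0303) and by -0.71 for DM-aKG over WT (adjusted p = 0.00369).

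Cdk6 (chr5:3341485-3531008, plus strand) was the lower of the 2 kinases in all 20 libraries. It had 2.60, 3.47 and 3.91 RPKM in DM-aKG libraries, 2.96, 4.07 and 5.41 RPKM in control libraries and 1.04, 2.71 and 3.07 RPKM in WT libraries. DM-aKG and control libraries overlapped over most of their range, while 4 of 6 DM-aKG libraries and 5 of 7 control libraries lay above the highest WT library. Cdk6 did not pass between DM-aKG and control libraries (-0.22, 95% interval -0.55 to 0.11, adjusted p = 0.289). This difference was -0.02 in replicates 1 to 4 and -0.50 in replicates 5 to 7, where it passed as lower (adjusted p = 0.0361, against 0.0361 to 0.945 over all alternatives), and the difference between the sets did not pass (adjusted p = 0.458). It rose by 0.64 in control against WT libraries (SE 0.15, adjusted p = 0.00131), a call that was lost with the smooth muscle covariate (0.44, adjusted p = 0.156, against 0.000355 to 0.156 over all alternatives). In DM-aKG against WT libraries it was higher by 0.42 (SE 0.16, adjusted p = 0.0427), close to the threshold. Leaving out any of DM-aKG replicates 1, 2, 4 and 5, or any of WT replicates 1, 2 and 3, ended that call (adjusted p between 0.065 and 0.0937). This difference did not pass in replicates 5 to 7 alone either (0.07, adjusted p = 0.784, against 0.013 to 0.784 over all alternatives). Nor did it pass with quantile normalization, no filter on low values, array weights or the smooth muscle covariate (adjusted p between 0.056 and 0.0659). Cdk6 made up 12.3 ± 2.88% of the summed level of both kinases in DM-aKG libraries, 7.87 ± 3.35% in control libraries and 6.85 ± 1.61% in WT libraries.

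Neither inhibitor passed the test between DM-aKG and control libraries. Cdkn1a (chr17:29090976-29100727, plus strand), the p53 target p21, was the highest of the 10 genes in 20 of 20 libraries. It had 83.0, 121.7 and 168 RPKM in DM-aKG libraries, 70.6, 102 and 143 RPKM in control libraries and 89.7, 109 and 155 RPKM in WT libraries. The 3 groups overlapped over most of their range. None of its differences passed: 0.26 for DM-aKG over control (95% interval -0.15 to 0.66, adjusted p = 0.32), -0.26 for control over WT (-0.64 to 0.13, adjusted p = 0.241) and -0.00 for DM-aKG over WT (-0.40 to 0.40, adjusted p = 0.996). Control over WT passed as lower with median-of-ratios scaling (-0.51, adjusted p = 0.0399, against 0.0399 to 0.652 over all alternatives).

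Cdkn1b (chr6:134920401-134925513, plus strand), the inhibitor p27, had the smallest coefficient of variation of the 10 genes in DM-aKG libraries (10.1%) and in control libraries (11.1%). It had 18.7, 20.1 and 24.5 RPKM in DM-aKG libraries, 18.7, 20.96 and 25.5 RPKM in control libraries and 14.5, 18.4 and 20.6 RPKM in WT libraries. DM-aKG and control libraries covered nearly the same range, and 4 of 7 control libraries lay above the highest WT library. DM-aKG over control was -0.03 (95% interval -0.21 to 0.16, adjusted p = 0.841), and 0.16 with median-of-ratios scaling. Cdkn1b was higher in control than in WT libraries by 0.23 (SE 0.09, adjusted p = 0.0284), which is 0.03 above the median of all genes and -0.01 with median-of-ratios scaling. That call was also lost when any of control replicates 5 and 7 or WT replicates 1 and 3 was left out (adjusted p between 0.0516 and 0.0716, against 0.0114 to 0.933 over all alternatives). The same held with quantile normalization (0.08, adjusted p = 0.442), in replicates 5 to 7 alone (0.16, adjusted p = 0.328) and with the smooth muscle covariate (0.13, adjusted p = 0.48). DM-aKG over WT was 0.20 (95% interval 0.01 to 0.39, adjusted p = 0.0791), and it passed without WT replicate 7 (0.24, adjusted p = 0.0486) and with the sets of replicates as a factor (adjusted p = 0.0362).

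The summed level of both inhibitors was 143 ± 32.7 RPKM in DM-aKG libraries, 123 ± 27.2 RPKM in control libraries and 139 ± 23.2 RPKM in WT libraries (SD, n = 6, 7 and 7). Divided by the summed D-type cyclins it was 3.83 ± 1.63 in DM-aKG libraries, 2.70 ± 1.14 in control libraries and 1.70 ± 0.377 in WT libraries. This ratio ran between 2.14 and 6.45 in DM-aKG libraries, between 0.937 and 4.03 in control libraries and between 1.20 and 2.30 in WT libraries. The 3 ranges overlapped, and the ratio was not tested. Cdkn1c (p57), the remaining inhibitor of the same family, differed between all 3 groups, at 4.35 ± 1.49 RPKM in DM-aKG libraries, 9.64 ± 2.08 RPKM in control libraries and 1.76 ± 0.399 RPKM in WT libraries. It fell by 1.01 in DM-aKG against control libraries (adjusted p = 4.98e-05), rose by 1.93 in control against WT libraries (adjusted p = 2.61e-09) and was higher by 0.92 in DM-aKG than in WT libraries (adjusted p = 0.000168).

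No difference between the sets of replicates passed for any of the 10 genes in any comparison. Over all genes, limma called 26 for DM-aKG over control and 0 for each of the comparisons with WT, where the smallest adjusted p among the 10 genes was 0.71 and unadjusted p-values were under 0.05 for Mycl in control against WT (0.0206) and for Myc, Mycl, Cdk4 and Cdk6 in DM-aKG against WT (0.0125, 0.0381, 0.0243 and 0.032). For those 4 genes the DM-aKG and WT difference was 0.80, 0.91, -0.05 and 0.67 in replicates 1 to 4, and -0.15, 0.21, -0.81 and 0.07 in replicates 5 to 7. DM-aKG has 4 libraries in the first of these sets and 2 in the second.

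**Figure D4:**
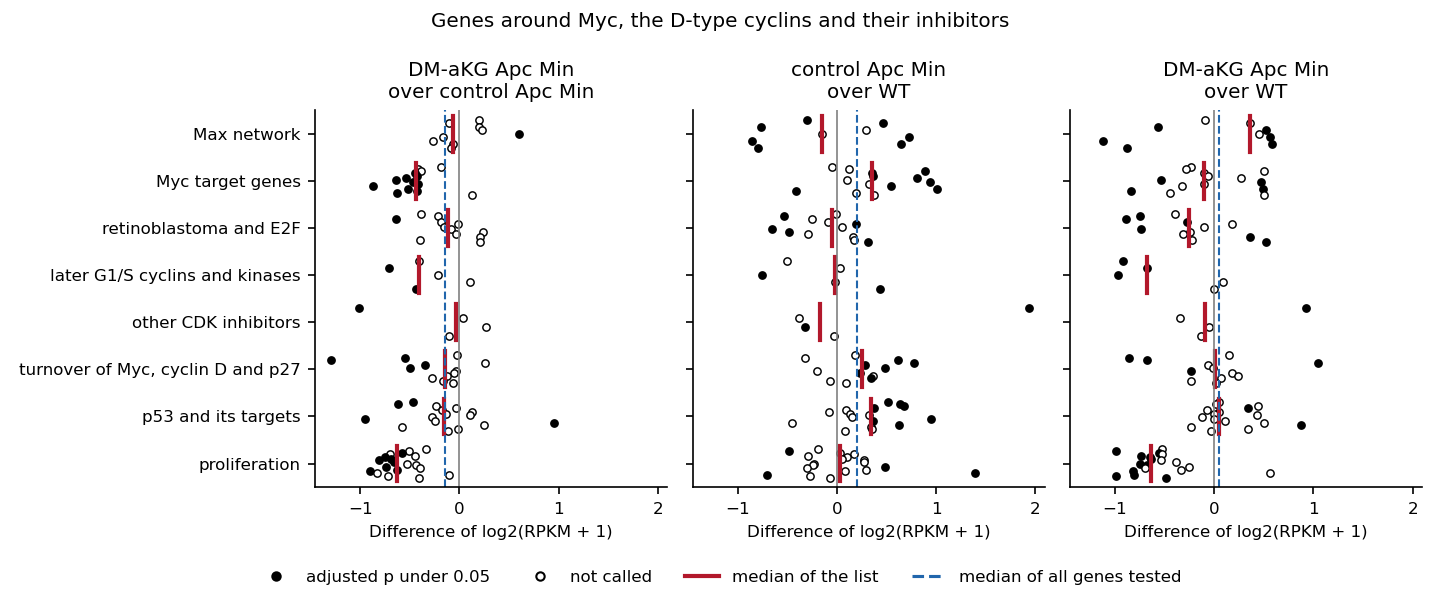
Differences on the log2(RPKM + 1) scale of the genes in 8 lists around the Myc and cyclin D pathway, for each comparison. Each point is a gene, the red bar is the median of the list and the dashed line is the median of all genes tested. For DM-aKG over control the medians of the proliferation list (-0.63) and the Myc target list (-0.44) lie below the median of all genes (-0.14).

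Around these genes, 8 lists of pathway genes were counted, as a description with no test of any list. In DM-aKG against control libraries 10 of 14 Myc target genes were lower and 0 higher, with a list median of -0.44 against -0.14 for all genes, of which 27.6% were lower and 5.91% higher. Among them were Eif4e, the cap-binding translation factor (-0.45, adjusted p = 0.00121), Npm1, a nucleolar ribosome assembly factor (-0.52, adjusted p = 0.00163), and Nop56, of the snoRNA particles (-0.87, adjusted p = 0.0032). Npm1 had 122 ± 16.9 RPKM in DM-aKG libraries, 175 ± 17.4 RPKM in control libraries and 86.7 ± 13.8 RPKM in WT libraries (SD, n = 6, 7 and 7). Of 19 proliferation genes 8 were lower and 0 higher, with a median of -0.63. They included the replication clamp Pcna (-0.63, adjusted p = 0.0036), the helicase subunit Mcm7 (-0.74, adjusted p = 0.00673) and the mitotic kinase Plk1 (-0.90, adjusted p = 0.0071). Of 5 later G1/S genes 2 were lower, cyclin E1 (Ccne1, -0.71, adjusted p = 0.00529) and Cdk2 (-0.44, adjusted p = 0.0077).

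The other lists held called genes in smaller shares in DM-aKG against control libraries, where 27.6% of all genes were lower and 5.91% higher. The counts of lower turnover genes (4 of 12) and other inhibitors (1 of 4) were near that background. Those of lower p53 genes (3 of 16) and retinoblastoma and E2F genes (1 of 12) were below it. Of 12 retinoblastoma and E2F genes 1 was lower, E2f3 (-0.64, adjusted p = 0.00226), with a list median of -0.12. Of 12 genes for the turnover of Myc, cyclin D and p27, 4 were lower and 0 higher, with a median of -0.14. Cks1b, a cofactor for the destruction of p27, led them at 5.48 ± 2.28 RPKM in DM-aKG libraries against 14.6 ± 4.56 RPKM in control libraries (-1.29, adjusted p = 0.000135), before the ubiquitin ligase subunits Fbxw7 (-0.50, adjusted p = 0.000192) and Fbxo4 (-0.34, adjusted p = 0.0283). Of 16 p53 targets and regulators 3 were lower, Bax (-0.62), Phlda3 (-0.95) and Aen (-0.47), and 1 was higher, the stress gene Sesn1, which is named because it was the only one (0.95, adjusted p = 0.0233). Of 9 genes of the Max network 1 was higher, Mlxipl (ChREBP), which binds with Mlx in place of Max (0.60, adjusted p = 0.0403). Of 4 other inhibitors Cdkn1c alone was lower.

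In control against WT libraries 7 of 14 Myc target genes were higher and 1 was lower, with a list median of 0.36 against 0.20 for all genes. In this comparison 43.2% of all genes were higher and 15.7% lower, so the counts of higher Myc target (7 of 14), p53 (7 of 16) and turnover genes (6 of 12) were near that background. Npm1 (1.01, adjusted p = 2.54e-07), Ncl, which encodes nucleolin (0.94, adjusted p = 7.62e-06), and the helicase gene Ddx21 (0.89, adjusted p = 0.000808) had the smallest adjusted p. The Max network split, with 3 of 9 genes higher and 4 lower. Its Myc antagonist Mnt was higher (0.73), while Mlx (-0.77) and the antagonist Mxi1 (-0.79) were lower. Of 19 proliferation genes 2 were higher, Rrm2 (1.39) and Mcm7 (0.48), and 2 were lower, Tk1 (-0.70) and Birc5 (-0.48), with a list median of 0.03. Of 16 p53 genes 7 were higher and 0 lower, and Bax, a death effector (0.63, adjusted p = 0.000296), had the smallest adjusted p, before Aen (0.52) and Phlda3 (0.95). Turnover genes were higher in 6 of 12 and lower in 0, led by Fbxo31, a ligase subunit that acts on cyclin D1 (0.78, adjusted p = 7.62e-06) and Fbxw7 (0.49). Of 12 retinoblastoma and E2F genes 2 were higher and 3 lower, with Rb1 itself lower (-0.49, adjusted p = 0.00662), E2f8 lower (-0.65) and Tfdp2 higher (0.31). Among the later G1/S genes Cdk2 was higher (0.44) and cyclin E2 (Ccne2) was lower (-0.75). Of 4 other inhibitors Cdkn1c was higher and Cdkn2c was lower (-0.32).

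In DM-aKG against WT libraries 11 of 19 proliferation genes were lower and 0 higher, with a list median of -0.64 against 0.05 for all genes, of which 17.3% were lower and 21.9% higher. Birc5 (survivin) had 2.68 ± 0.929 RPKM in DM-aKG libraries, 4.28 ± 1.58 RPKM in control libraries and 6.12 ± 0.827 RPKM in WT libraries (SD, n = 6, 7 and 7). Against WT its difference was -0.99 (adjusted p = 0.000823), and lower too were Plk1 (-0.82, adjusted p = 0.012) and cyclin B2 (Ccnb2, -0.74, adjusted p = 0.0238). Of 5 later G1/S genes 3 were lower, Ccne2 (-0.97), Ccne1 (-0.68) and Ccna2 (-0.91). Of 12 retinoblastoma and E2F genes 4 were lower, E2f3 (-0.89) and E2f2 (-0.75) among them, and 2 were higher, Tfdp2 (0.52) among them. Of 14 Myc target genes 2 were higher, Npm1 (0.49) and Ncl (0.47), and 2 were lower, Odc1, the rate-limiting enzyme of polyamine synthesis, among them (-0.84). The Max network had 3 higher of 9, with Mnt (0.56) among them, and 3 lower, with Mlx (-0.57) and Mxi1 (-0.88) among them. The turnover list had 1 higher, Fbxo31 (1.04), and 3 lower of 12, Aurka (-0.86) and Cks1b (-0.68) among them. Of 16 p53 genes 2 were higher, Sesn2 (0.88) and Btg2 (0.34), and 0 lower. Of 4 other inhibitors Cdkn1c alone was higher.

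Markers of other cells were counted beside the share of all genes called. That share was 5.91% higher and 27.6% lower for DM-aKG over control, and 43.2% higher and 15.7% lower for control over WT. For DM-aKG over WT it was 21.9% higher and 17.3% lower. In DM-aKG against control libraries all 10 smooth muscle markers were higher, 5 of 7 fibroblast markers were lower, 5 of 7 epithelial markers were lower and 1 higher, and 1 of 7 leukocyte and 1 of 5 endothelial markers were lower. In control against WT libraries all 10 smooth muscle markers were lower, 6 of 7 leukocyte markers were lower, 6 of 7 fibroblast markers and 3 of 5 endothelial markers were higher, and 3 of 7 epithelial markers were lower and 1 higher. In DM-aKG against WT libraries 0 of 10 smooth muscle markers were called, while 6 of 7 leukocyte markers were lower, 5 of 5 endothelial and 2 of 7 fibroblast markers were higher and 4 of 7 epithelial markers were lower. As examples, Myh11 had 161 ± 35.7 RPKM in DM-aKG libraries, 77.9 ± 34.5 RPKM in control libraries and 152 ± 24.8 RPKM in WT libraries, and Col1a1 had 10.4 ± 5.09 RPKM in DM-aKG libraries, 55.0 ± 11.9 RPKM in control libraries and 12.1 ± 2.95 RPKM in WT libraries (SD, n = 6, 7 and 7). Ptprc had 2.80 ± 1.14 RPKM in DM-aKG libraries, 2.30 ± 1.64 RPKM in control libraries and 7.07 ± 1.90 RPKM in WT libraries. With the smooth muscle mean as a covariate, Mycl, Ccnd1 and Cdk4 were still lower in DM-aKG than in control libraries. Myc (-0.64, adjusted p = 0.116) and Mycn (-0.40, adjusted p = 0.148) no longer passed there, while Ccnd3 passed as lower (-0.47, adjusted p = 0.0174). Over all genes that setting called 2423, against 4167 without the covariate. The part of the fibroblast, leukocyte, endothelial and epithelial levels in these results was not tested.

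Once each group's mean was subtracted, the genes most like Myc across the 20 libraries were Hnrnpll (Pearson r = 0.88), Clic6 (0.88) and Dcaf1 (0.86), among 8718 genes searched. Those most like Ccnd1 were Hyou1 (0.90), Ifrd2 (0.89) and Armt1 (0.88). For Cdkn1a they were Bicdl2 (0.86), Got1 (0.86) and Lpin3 (0.85). These correlations describe variation within groups, over libraries that share the sets of replicates and the scaling by library total.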

How the data were processed

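Libraries were prepared from total RNA of 20 mouse samples, per the labels' protocols, whose titles gave the groups and replicate numbers. Expression came from the authors' deposited table of 24795 genes, taken as RPKM from the values themselves: they hold fractions, the libraries sum to 277634 to 369409, and low values rise in steps that differ between genes. The tools named are CASAVA 1.8, HISAT2 2.0.4 and Partek, and the genome mm10, per the submitters' processing notes. The role of each tool, the annotation and the strand setting were not given in the sources used here. RPKM divides by the library total, and its 10 highest genes took up 6.56 to 13.81% of a library's summed RPKM. The size of these steps gave the depth estimate, the best fit among depths between 15 and 35 M reads. A doubled depth gives whole numbers too, so the estimate depends on that range. With it, 66.4 to 71.7% of low values came within 0.1 of a whole read count of at most 8, which is too few to recover counts. Values spread evenly would give 20% at a depth that was not picked as the best fit.

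Of these genes 12433 reached 1 RPKM in 6 or more libraries. Their log2(RPKM + 1) values entered 1 linear model of 3 groups and 20 libraries, fitted by limma 3.58.1 under R 4.3.3 with its trend and robust options. Tests were 2-sided, and p-values were Benjamini-Hochberg adjusted over the 12433 genes. A fold change on this scale understates the change of low genes. No pair of libraries held identical values. Gene positions and exons were read from GENCODE M21 (GRCm38/mm10), and promoter windows from RefSeq (GRCm38.p6). Alternatives covered scaling, the filter, the pseudocount, the variance model, library weights, the replicate number as a block, the sets of replicates, a smooth muscle covariate and leaving out each library.

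The 10 genes and the pathway lists were chosen with earlier results of these data known. From each list the text names up to 3 genes with the smallest adjusted p among those called. Sesn1, and Birc5 in control against WT, were named after their values were seen because few genes of their list were called in that direction. For Myc, Ccnd1 and Cdkn1a the 3 genes with the highest within-group correlation are named (mean log2 level of at least 2, predicted genes left out). Mxd3, E2f7, Cdkn2a, Eda2r and Gdf15 did not reach the minimum level and were not tested. A further gene that the naming rule picks is not reported here.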

Additional observations from a re-analysis of the deposited data

How the results depend on the processing

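Over 13 alternative settings and 20 that leave out 1 library, 906 of 987 member values kept their direction and their side of the threshold, 34 lost the call, 15 gained one and 32 changed sign. Leaving out 1 library gave 5 members called for DM-aKG over control, 6 to 8 for control over WT and 3 to 5 for DM-aKG over WT, against 5, 7 and 4. Over all genes these settings called 3441 to 4574, 6800 to 7477 and 3802 to 5154. The member counts in this section include Mycn, whose calls are no separate support. Without Mycn the main test called 0 members higher and 4 lower, 5 higher and 1 lower, and 2 higher and 2 lower. For control over WT, 4888 of all 12433 genes and 4 members were called in replicates 5 to 7 alone. With the smooth muscle covariate 3 members were called there. For DM-aKG over WT, 0 were called by limma in replicates 5 to 7 alone, with 2 DM-aKG libraries. The calls over all genes were 2225 (replicates 1 to 4 alone) and 2423 (smooth muscle covariate) for DM-aKG over control against 4167, 3406 (covariate) for control over WT against 7316, and 547 (replicates 5 to 7 alone) for DM-aKG over WT against 4873. The causes were not tested. Of the differences that changed sign, only that of Cdkn1b for control over WT had passed the test. For DM-aKG over control, Ccnd3 was 0.0053 with quantile normalization and 0.0079 with median-of-ratios scaling. Cdkn1b was 0.13 and 0.16 there, 0.013 with the replicate block, 0.012 in replicates 1 to 4, 0.054 with the covariate and -0.075 to 0.018 with 1 library left out. Ccnd2 was -0.44 in replicates 5 to 7 and -0.17 with the covariate. For control over WT, Ccnd3 was 0.14 with array weights, 0.089 in replicates 5 to 7, 0.36 with the covariate and -0.053 to 0.073 with 1 library left out, and Cdkn1b was -0.0084 with median-of-ratios scaling. For DM-aKG over WT, Cdkn1a was 0.15 with quantile normalization, 0.12 in replicates 5 to 7, 0.010 with the covariate and -0.10 to 0.10 with 1 library left out. Ccnd3 was 0.021 with array weights, and Myc was -0.15 in replicates 5 to 7. The deviations of same-numbered libraries correlated between -0.457 and 0.604. This cannot decide whether the numbers pair samples, which the labels do not say, and the main model used no pairing. With the replicate block 5, 7 and 6 members were called, beside 4361, 7759 and 5486 of all 12433 genes. In that setting Myc (0.48, adjusted p = 0.0494) and Cdkn1b (0.24, adjusted p = 0.0182) passed as higher for DM-aKG over WT. Mycn could not be tested with a minimum of 1 RPKM in all 20 libraries. Depth limits the precision of Mycn, which lay under 1 RPKM in 13 of 20 libraries.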
